A study of Mus musculus with 2 samples.

Results

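The genes described here form the calcium signalling core of skeletal muscle: the calcium buffer parvalbumin (Pvalb), calmodulin (Calm2 and Calm3), the 4 genes of the calcium/calmodulin-dependent kinase CaMKII (Camk2a, Camk2b, Camk2d and Camk2g) and 2 catalytic subunits of the phosphatase calcineurin (Ppp3ca and Ppp3cb). They were taken by gene symbol, as every transcript model that the authors had assigned to 1 of these 9 symbols, out of 15747 annotated genes with reads. The 9 genes had 162 models with 5145 reads in replicate 1 and 112 models with 7482 reads in replicate 2, which was 0.412% and 0.676% of the reads on annotated genes. The material was total RNA of the gastrocnemius, the large calf muscle, of 14-day-old female mice of the F1 hybrid strain B6CASTF1/J. Both long-read libraries belong to a single group, biological replicates 1 and 2, each begun with 2 µg of nucleic acid, so there is no contrast of genotype, treatment or time. The biosample text speaks of 3 females for replicate 1 and of a female for replicate 2, with a common donor identifier, and the sources do not say whether animals were pooled. Any p-value below therefore sets the reads of these libraries against each other, covers counting error only and holds no spread between animals.

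When a motor nerve fires, calcium leaves the sarcoplasmic reticulum and starts contraction, and parvalbumin in fast fibres takes up that calcium and so speeds relaxation. Calcium that binds calmodulin turns on CaMKII, a holoenzyme built from the products of its several genes, whose catalytic and calmodulin-binding parts are much alike and whose linker between the regulatory and association domains varies by splicing. Calcium-loaded calmodulin also turns on calcineurin, which dephosphorylates NFAT transcription factors and is known for its part in the slow-fibre programme.

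The tables held 1316937 reads in replicate 1 and 1204188 in replicate 2, of which 1248854 and 1106450 fell on annotated genes. Levels are given in CPM, the reads of a gene per 1000000 reads on annotated genes. A long read stands for a single transcript, so CPM was not divided by length. At this depth 1 read made 0.801 CPM (replicate 1) or 0.904 CPM (replicate 2), and a count of 0 allows up to 3 reads, or 2.40 and 2.71 CPM. All 7 muscle fibre markers had reads, with summed levels of 294279 and 234824 CPM, whereas of 6 neuron markers Snap25, Rbfox3, Syn1 and Nefl were at 0 and the list summed to 4 and 3 reads. Fibroblast markers, with reads for 4 of 4, summed to 7918 CPM in replicate 1 and 3397 CPM in replicate 2, and their part in the differences between the libraries was not tested. The libraries differed by transcript length: reads of replicate 1 lay on models of 2347 bases on average, those of replicate 2 on models of 1545 bases. Over all genes tested the log2 ratio of replicate 1 over replicate 2 had a median of -1.41 for 984 genes under 1000 bases and 0.50 for 1872 genes over 4000 bases. All log2 ratios are on edgeR's TMM scale, which lies -0.29 from scaling by the total. Fisher's exact tests of genes set unscaled reads against the other gene reads of each library. Their p-values therefore refer to the ratio scaled by the totals, not to the TMM ratio printed beside them.

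Parvalbumin was by far the most abundant of the 9 in both libraries, and below it the calmodulin genes and Ppp3ca stood above the kinases and Ppp3cb. By mean CPM over the libraries (± SD, n = 2), Pvalb stood at 4486 ± 1940 CPM, 20th of all annotated genes. Calm3 followed at 277 ± 37.6 CPM, Calm2 at 242 ± 153 CPM and Ppp3ca at 185 ± 79.7 CPM. The CaMKII genes Camk2b, Camk2d and Camk2g had 91.3 ± 49.8, 57.9 ± 15.5 and 57.6 ± 23.9 CPM. At the low end were Ppp3cb at 25.1 ± 9.87 CPM and Camk2a at 19.6 ± 8.53 CPM. The library values of neighbours in this order did not overlap between Pvalb and Calm3, between Ppp3ca and Camk2b, and between Camk2g and Ppp3cb. Only the first of these gaps was wide. Ppp3ca had 128 CPM in replicate 2 (Wilson 95% interval 109 to 151) and Camk2b 127 CPM in replicate 1 (108 to 148). Camk2g had 40.7 CPM in replicate 2 (30.4 to 54.4) and Ppp3cb 32.0 CPM in replicate 1 (23.5 to 43.6). Library values overlapped between all other neighbours. Of those, Camk2b was above Camk2d and Ppp3cb above Camk2a within each library. The order of Calm3 and Calm2, of Calm2 and Ppp3ca, and of Camk2d and Camk2g turned round between the libraries. In bulk RNA, fewer cells of a type and less RNA per cell cannot be told apart.

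**Figure D1:**
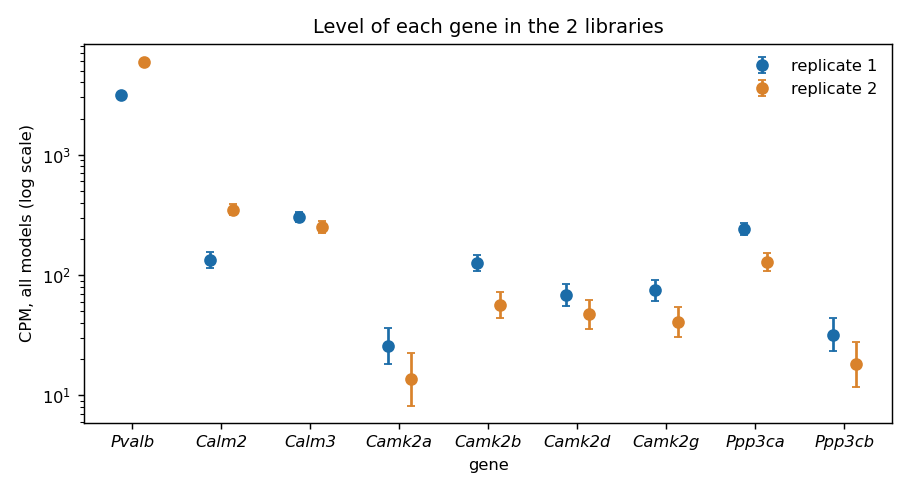
CPM of each gene (log scale) in replicate 1 (blue) and replicate 2 (orange), all models together, with Wilson 95% intervals of the share of gene reads. Pvalb lies at 3114 and 5857 CPM, and the remaining 8 genes lie between 13.6 and 351 CPM.

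Of the 9 genes, 2 were called higher in replicate 2 (Pvalb and Calm2) and 0 higher in replicate 1. A call needed an adjusted p under 0.05 by Fisher's exact test over all genes with at least 10 reads (two-sided, Benjamini-Hochberg) and a log2 ratio of at least 1 in size. Of the 8973 genes tested, 11.4% were called higher in replicate 2 and 8.87% higher in replicate 1, so calls of this kind were common, and the 2 in 9 are to be read against that. The median log2 ratio was 0.53 over the 9 genes and 0.01 over all genes tested, and 6 of the 9 ratios were above 0. The 5 genes whose full splice models averaged 2599 to 4266 bases had ratios from 0.26 (Camk2d) to 0.88 (Camk2b), Calm3 at 2287 bases had -0.01, and Pvalb and Calm2 at 952 and 1202 bases had the lowest. Among the 5 longest the ratio did not follow length, since Camk2d was the longest of them and had the lowest ratio. Camk2a, with 979 bases over its few full splice reads, had 0.62. With the trend on length removed, neither Pvalb nor Calm2 was called. EdgeR's exact test used a dispersion estimated from both libraries as 1 group (biological coefficient of variation 0.43). It called 0 of the 9, and among all genes tested 0 higher in replicate 1 and 7 higher in replicate 2. That dispersion already holds the difference under test, so calls were unlikely from the start and these counts decide nothing.

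**Figure D2:**
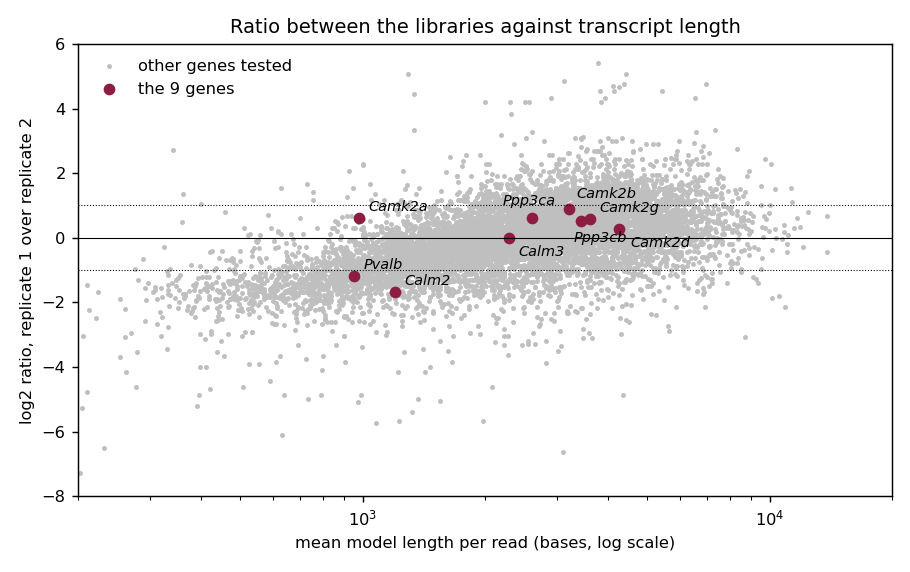
Log2 ratio of replicate 1 over replicate 2 (TMM scale) against the mean model length per read (bases, log scale), for the 9 genes (dark red) and the other genes tested (grey), with dotted lines at a ratio of 1 in either direction; 39 of the genes tested lie outside the length axis. Pvalb (-1.20) and Calm2 (-1.67) are the only 2 of the 9 beyond the lines, at the short end.

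Pvalb encodes parvalbumin, the EF-hand protein that buffers calcium in the cytosol of fast fibres (chromosome 15, minus strand, 78191114 to 78206400 on mm10). It had 3889 reads in replicate 1 and 6481 in replicate 2, or 3114 and 5857 CPM. The log2 ratio was -1.20, with an adjusted p of 3.44e-219 by Fisher's exact test. Most of the difference in reads came from a model of the genomic class. This is the authors' class for reads that overlap a gene without its splicing. That model held 2523 of the reads of replicate 2, is listed with a single exon of 4 bases at the 3′ end of the gene (78191114 to 78191117), and has no counterpart in replicate 1, where no Pvalb read was of the genomic class. Those 4 bases run from the annotated end of Pvalb-201 to that of Pvalb-202. Outside the genomic class, Pvalb had 3889 reads in replicate 1 and 3956 in replicate 2. The log2 ratio was then -0.55, not past the threshold, with an adjusted p of 6.49e-15 by Fisher's exact test. With all classes kept and the trend on length removed, the ratio was -0.19. Over all annotated genes, models of the genomic class with a listed length under 50 bases held 2855 reads in replicate 1 and 19661 in replicate 2. Their part in other ratios was not tested. The level of Pvalb in replicate 2 thus depends on whether these 2523 reads are counted.

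**Figure D3:**
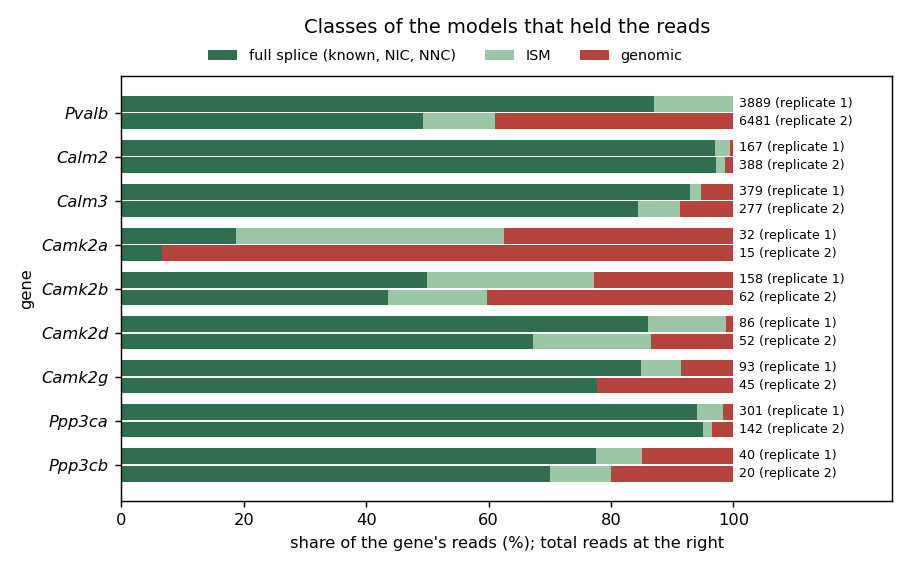
Share of each gene's reads (percent) in full splice models (known and unannotated complete chains), incomplete splice matches (ISM) and models of the genomic class, replicate 1 above replicate 2 for each gene, with total reads at the right. The genomic class took 0 Pvalb reads in replicate 1 and 39.0% in replicate 2, and 37.5% and 93.3% of the Camk2a reads.

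Pvalb was transcribed from a pair of annotated starts, and 1 of them held nearly all reads. In full splice chains, Pvalb-202, which begins at 78206400, took 94.7% of 3384 reads in replicate 1 and 92.9% of 3189 in replicate 2. Pvalb-201 begins further into the gene, at 78204237, and took 4.34% and 6.52%. Its share was lower in replicate 1 (adjusted p = 0.00398 by Fisher's exact test over 2826 chains), by less than the 10 percentage points that a call required. The remaining 24 chains, all unannotated, held 33 and 20 reads together. An annotated internal exon of 133 bases was in 99.9% of the informative reads of either library. The bases before both starts are shown because the reads tell the starts apart. They are from RefSeq on GRCm38.p6, 5′ to 3′ on the minus strand, with capitals for the E-box letters CANNTG, the core bound by MyoD-like factors.
Pvalb-202 start, chr15:78206401-78206650: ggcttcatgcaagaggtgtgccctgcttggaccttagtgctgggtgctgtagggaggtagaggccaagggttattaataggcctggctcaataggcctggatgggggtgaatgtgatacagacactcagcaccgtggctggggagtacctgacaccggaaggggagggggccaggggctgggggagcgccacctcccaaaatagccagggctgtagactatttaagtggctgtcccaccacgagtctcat
Pvalb-201 start, chr15:78204238-78204487: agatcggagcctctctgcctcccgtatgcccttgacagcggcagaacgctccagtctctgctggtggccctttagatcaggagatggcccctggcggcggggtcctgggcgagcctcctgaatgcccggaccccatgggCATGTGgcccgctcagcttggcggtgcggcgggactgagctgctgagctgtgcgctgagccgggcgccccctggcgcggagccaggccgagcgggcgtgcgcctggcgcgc
The window before the Pvalb-202 start was 58.4% G and C and held 0 matches to CANNTG, and that before the Pvalb-201 start was 71.6% G and C and held 1, at 111 bases before the start. Matches were sought on both strands, and 66.2% of 32851 RefSeq windows of the same 250 bases held at least 1. Neither window held the exact letters TATAAA, which 12.4% of all windows held, and variants of these letters were not sought. Neither held the exact letters CTANNNNTAG, used here for MEF2 sites, which 3.20% of all windows held. Variants of these letters were not sought either. The Pvalb-202 window holds ttattaatag, which differs from them at the first base only, so the search cannot decide whether a MEF2 site is present. Of the other genes, RefSeq windows for Calm3, Camk2b, Camk2d and Ppp3cb were present in the table.

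Calmodulin, the calcium sensor that carries the signal to both enzymes, is represented here by Calm2 and Calm3, and the order of these genes turned round between the libraries. Calm2 made up 30.6% of the 546 reads of the pair in replicate 1, with Wilson 95% bounds of 26.9 and 34.6%. In replicate 2 its share was 58.3% of 665 reads, with bounds of 54.6 and 62.0%. Calm3 held the remaining 69.4% and 41.7%. Full splice models alone gave Calm2 31.5% of 514 reads and 61.7% of 611.

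The coding sequences show how reads of these genes can be told apart. Calm2-201 and Calm3-201 each have 447 coding bases, without the stop codon, and their 149 codons translate to the same protein with 0 differing residues, although 78 of the 447 bases differ. The first 60 coding bases, from the GENCODE M21 transcripts, are set out with capitals at the 8 positions where they differ.
Calm2-201, chromosome 17: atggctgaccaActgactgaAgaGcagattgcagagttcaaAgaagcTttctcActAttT
Calm3-201, chromosome 7: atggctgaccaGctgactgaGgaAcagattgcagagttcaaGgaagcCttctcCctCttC
The shared bases mean that a short or partial read inside the coding part may be assigned to the wrong gene, and the sources do not say how such reads were treated.

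Calm2 (chromosome 17, minus strand, 87433412 to 87446935) had 167 reads in replicate 1 and 388 in replicate 2, or 134 and 351 CPM. Its log2 ratio was -1.67, with an adjusted p of 4.12e-26 by Fisher's exact test. Unlike Pvalb, this difference sat on spliced reads, with 162 and 377 reads in full splice models and 1 and 5 of the genomic class. Calm2-201, a model of 1205 bases, held 98.1% and 98.7% of the full splice reads. With the trend on length removed the log2 ratio was -0.97, short of the threshold of 1, with an adjusted p of 2.03e-12 by an exact binomial test.

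Calm3 (chromosome 7, minus strand, 16915379 to 16924114) had 379 reads in replicate 1 and 277 in replicate 2, or 303 and 250 CPM, a log2 ratio of -0.01. Its sign is that of the TMM scale and turns to 0.28 when the libraries are scaled by their totals. Calm3-201, of 2290 bases, held 96.9% and 98.7% of its full splice reads. In both Calm2 and Calm3 an internal exon of 31 bases was nearly constant, with 98.8% and 99.7% inclusion in Calm2 and 98.3% and 98.7% in Calm3.

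Reads were assigned to all 4 CaMKII genes, with Camk2b first by all reads and no clear leader among complete transcripts. Those of Camk2a covered no exon of the kinase domain, so its shares below do not show transcripts of the alpha kinase. Camk2b held 42.8% of 369 CaMKII reads in replicate 1 (37.9 to 47.9%) and 35.6% of 174 in replicate 2 (28.9 to 43.0%). Camk2g held 25.2% and 25.9%, Camk2d 23.3% and 29.9%, and Camk2a 8.67% and 8.62%. In full splice models alone, Camk2b, Camk2g and Camk2d held 33.2%, 33.2% and 31.1% of 238 reads in replicate 1, and 27.6%, 35.7% and 35.7% of 98 reads in replicate 2. Camk2a then had 6 reads in replicate 1 and 1 in replicate 2.

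Camk2a, the alpha kinase best known from neurons (chromosome 18, plus strand, 60925618 to 60988152), had 32 reads in replicate 1 and 15 in replicate 2, or 25.6 and 13.6 CPM, and none of them covered the exons of the kinase domain. Its 7 full splice reads, 6 and 1, all followed Camk2a-204, a model of 7 exons that begins at 60963554, after the first 12 of the 19 exons of Camk2a-201. The exons before that point had 0 reads in either library, which allows up to 2.40 and 2.71 CPM. A product of this gene without the kinase domain, named alpha-KAP and known to anchor CaMKII at the sarcoplasmic reticulum, has been described in skeletal muscle. Another 14 reads of replicate 1 and 0 of replicate 2 were incomplete splice matches in a single-exon model, and 12 and 14 reads were of the genomic class. Without the genomic class Camk2a had 20 reads in replicate 1 and 1 in replicate 2, and with that choice it was called higher in replicate 1 (log2 ratio 3.25).

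Camk2b encodes the beta kinase, the isoform that also binds actin (chromosome 11, minus strand, 5969644 to 6066362). It had 158 reads in replicate 1 and 62 in replicate 2, or 127 and 56.0 CPM, with a log2 ratio of 0.88 and an adjusted p of 1.72e-07 by Fisher's exact test, short of the ratio that a call required. That call depends on the setting, since the ratio was 1.17 when scaled by the totals, 1.03 in known models alone and 1.18 without the genomic class, and was called in each. Only 79 and 27 of its reads were in full splice chains. Camk2b-202, of 24 exons, was the leading chain with 34 and 10 reads, and Camk2b-209, of 21 exons, came next with 17 and 6. Unannotated chains held 35.4% and 40.7% of the full splice reads.

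The transcripts of Camk2b differed mainly in whether the linker carried 3 neighbouring exons of 114, 129 and 129 bases. A form of the beta kinase with proline-rich inserts, beta-M, is known from skeletal muscle. The 114-base exon and the neighbouring 129-base exon are set out in transcript order, 5′ to 3′ on the minus strand, from the GENCODE M21 transcript Camk2b-202, with whole proline codons in capitals.
Camk2b exon of 114 bases, chr11:5978399-5978512: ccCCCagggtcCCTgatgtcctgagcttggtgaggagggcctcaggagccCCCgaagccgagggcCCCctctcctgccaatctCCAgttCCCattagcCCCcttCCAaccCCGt
Camk2b exon of 129 bases, chr11:5977812-5977940: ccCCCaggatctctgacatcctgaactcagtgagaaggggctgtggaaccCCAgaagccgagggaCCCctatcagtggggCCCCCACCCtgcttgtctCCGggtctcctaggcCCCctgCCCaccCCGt
Of 79 whole codons in the exons shown 19 (24.1%) encode proline, against 57 of all 666 codons of Camk2b-202 (8.56%). Each of the 3 exons is a multiple of 3 bases long and keeps the reading frame.

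On single reads these exons were mostly present or absent as a set. Of 89 reads of replicate 1 that span the region, 61 held all 3 exons (68.5%, interval 58.3 to 77.2%), 23 held none (25.8%) and 5 held another set (5.62%). Of 29 such reads of replicate 2, 16 held all 3 (55.2%, 37.5 to 71.6%), 11 held none (37.9%) and 2 held another set (6.90%). Reads with another set were thus the smallest group in both libraries. Among them, 1 read in each library held the outer exons and, in place of the middle exon, another exon that overlaps it.

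An exon of 75 bases further 5′ in the same linker was found both with and without this trio. All 4 exons were on 46 of 89 reads in replicate 1 and 13 of 29 in replicate 2, and with the 75-base exon alone 20 and 8. The trio without the 75-base exon was on 15 and 3 reads, in a combination found in no known model that had reads, and none of the 4 exons was on 3 and 3. Inclusion of the 75-base exon was 78.7% in replicate 1 and 79.3% in replicate 2. The 114-base exon stood at 70.0% and 58.1%, and the 129-base exons at 75.5% and 63.3% (5′) and 77.4% and 67.6% (3′). The trio was lower in replicate 2 at every exon, with wide and overlapping intervals and adjusted p-values of 1.0 by Fisher's exact test. An annotated 33-base exon was on 0 of 76 and 0 of 27 informative reads, which allows up to 3.95% and 11.1%.

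**Figure D4:**
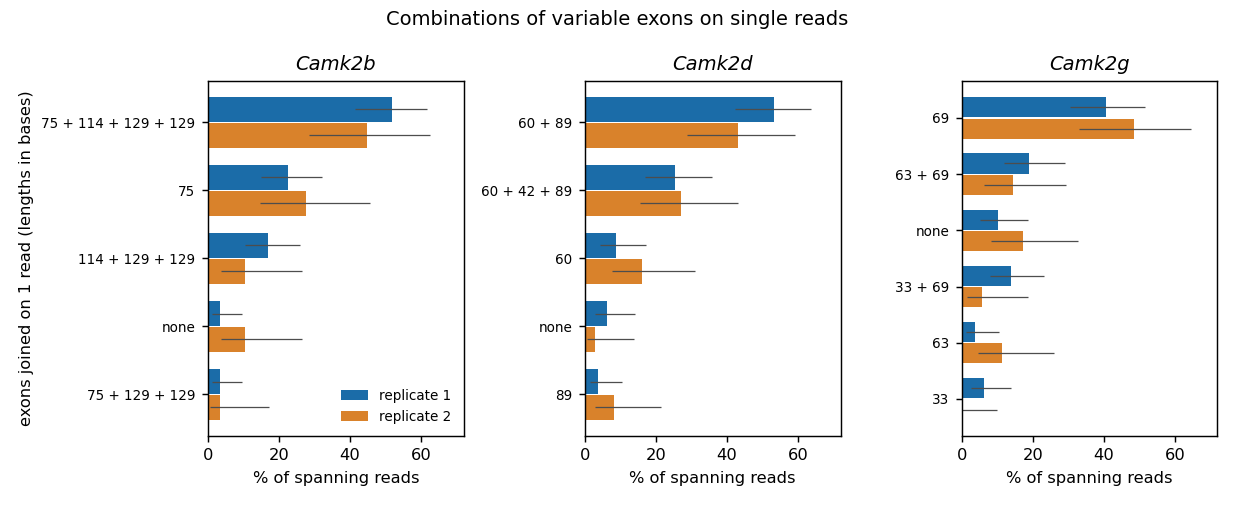
Share of the reads spanning the variable region (percent, with Wilson 95% intervals) by the set of variable exons joined on the read, named by their lengths in bases, for combinations with at least 3 reads, replicate 1 (blue) above replicate 2 (orange). The complete set of 4 leads in Camk2b (51.7 and 44.8%), the pair of 60 and 89 bases in Camk2d (53.2 and 43.2%) and the 69-base exon alone in Camk2g (40.5 and 48.6%).

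Camk2d, the delta kinase and the main isoform of the heart (chromosome 3, plus strand, 126596302 to 126846326), had 86 reads in replicate 1 and 52 in replicate 2, or 68.9 and 47.0 CPM, a log2 ratio of 0.26. Its leading chain was not in GENCODE M21: an unannotated combination of 20 exons held 33 of 74 full splice reads in replicate 1 (44.6%, 33.8 to 55.9%) and 12 of 35 in replicate 2 (34.3%, 20.8 to 50.8%). Camk2d-228, of 21 exons, followed with 19 and 8 reads. Unannotated chains held 63.5% and 68.6% of the full splice reads. The exons of 60 and 89 bases without that of 42 bases were joined on 42 of 79 and 16 of 37 spanning reads, a set seen in no known model with reads. All 3 exons were on 20 and 10 reads. The 60-base exon was on 72 of 80 and 34 of 39 informative reads. Inclusion was 27.5% and 28.2% for the 42-base exon and 83.1% and 79.1% for the 89-base exon, which is near the 3′ end and is not a multiple of 3 bases long.

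Camk2g encodes the gamma kinase (chromosome 14, minus strand, 20734875 to 20794088). It had 93 reads in replicate 1 and 45 in replicate 2, or 74.5 and 40.7 CPM, a log2 ratio of 0.58 with an adjusted p of 0.00403 by Fisher's exact test, under the ratio that a call required. Camk2g-202 led with 31 of 79 and 17 of 35 full splice reads (39.2 and 48.6%), and an unannotated chain of 21 exons that adds a 63-base exon followed with 14 and 5. The 69-base exon of its linker was included in 79.0% and 71.4% of informative reads, the 63-base exon in 26.6% and 28.6% and a 114-base exon in 3.70% and 2.86%. Its linker was found in 10 combinations of these exons among 79 and 35 spanning reads, against 7 each in Camk2b and Camk2d, but 6 combinations were found in both libraries for each of the 3 genes.

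The delta and gamma genes each hold a 33-base exon that opens with basic codons, known as the nuclear localisation signal of the delta-B form. The exons are from GENCODE M21 (Camk2d-205 and Camk2g-201), with the lysine and arginine codons in capitals.
Camk2d exon of 33 bases, chr3:126802937-126802969: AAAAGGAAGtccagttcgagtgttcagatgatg
Camk2g exon of 33 bases, chr14:20747819-20747851: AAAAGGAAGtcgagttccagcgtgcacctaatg
They are alike at 26 of 33 bases. In Camk2d the exon was on 0 of 80 informative reads in replicate 1 and 0 of 39 in replicate 2, which allows up to 3.75% and 7.69%. In Camk2g it was on 19 of 81 reads in replicate 1 (23.5%, 15.6 to 33.8%) and 2 of 35 in replicate 2 (5.71%, 1.58 to 18.6%). The difference between the libraries had a p of 0.0332 by Fisher's exact test and an adjusted p of 1.0 over the 7079 exons tested.

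Calcineurin reads came mainly from Ppp3ca, the alpha catalytic subunit (chromosome 3, plus strand, 136670124 to 136937727). Of the reads of the 3 catalytic genes, Ppp3ca held 86.2% of 349 in replicate 1 (82.2 to 89.5%) and 82.1% of 173 in replicate 2 (75.7 to 87.1%). Ppp3cb held 11.5% and 11.6%, and Ppp3cc, the gamma subunit best known from testis, 2.29% and 6.36%. Ppp3ca had 301 and 142 reads, or 241 and 128 CPM, with a log2 ratio of 0.62 and an adjusted p of 3.57e-09 by Fisher's exact test, under the ratio that a call required. It was cleanly spliced, with 94.0% and 95.1% of its reads in full splice models. Ppp3ca-201 held 81.6% and 85.2% of these and Ppp3ca-202 held 16.6% and 12.6%.

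These leading Ppp3ca models differ by a 30-base exon near the 3′ end of the coding part, which was included in 248 of 296 reads of replicate 1 (83.8%, 79.2 to 87.5%) and 118 of 136 of replicate 2 (86.8%, 80.0 to 91.5%). The matching exon of Ppp3cb, the beta catalytic subunit, is 26 of 30 bases identical. Both are set out from GENCODE M21, with capitals at the 4 differing positions.
Ppp3ca exon of 30 bases, chr3:136932011-136932040: cTacTgttgaggctattgaggctgaTGaag
Ppp3cb exon of 30 bases, chr14:20503247-20503276: cCacAgttgaggctattgaggctgaAAaag
In Ppp3cb the exon was on 32 reads of replicate 1 with 1 read that skipped it, and on 13 reads of replicate 2 with 0 that skipped it.

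Ppp3cb (chromosome 14, minus strand, 20499364 to 20546573) had 40 reads in replicate 1 and 20 in replicate 2, a log2 ratio of 0.53 with a mean of 25.1 ± 9.87 CPM (SD, n = 2). Most of its complete transcripts held a 27-base exon that GENCODE M21 does not list, at 20511474 to 20511500, with a length that keeps the reading frame. It was on 29 of 34 informative reads in replicate 1 (85.3%, 69.9 to 93.6%) and 9 of 14 in replicate 2 (64.3%, 38.8 to 83.7%), too few in replicate 2 for a test. The leading chain, of 15 exons with this exon, had 20 of 31 and 5 of 14 full splice reads. Unannotated chains held 87.1% and 64.3% of the full splice reads of Ppp3cb, against 1.77% and 2.22% of those of Ppp3ca.

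**Figure D5:**
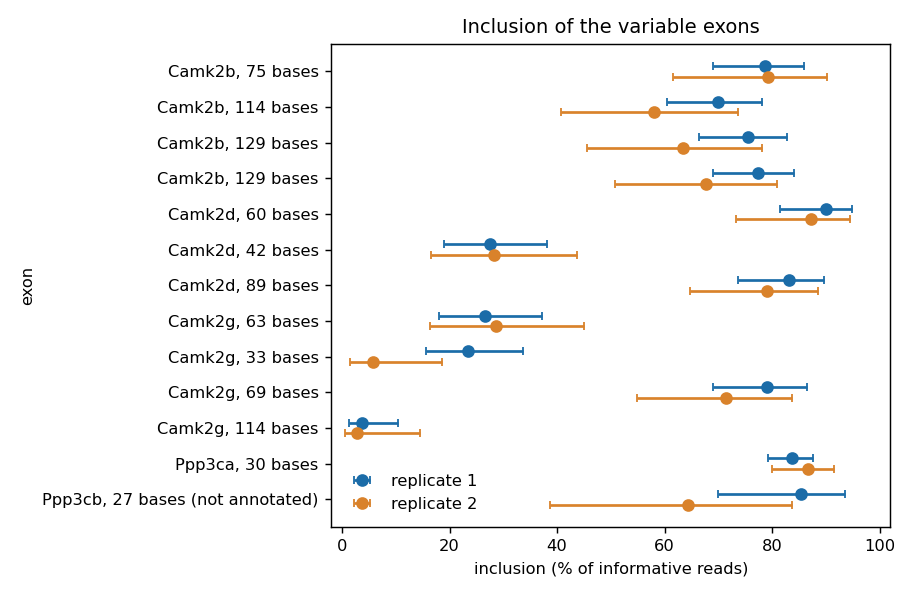
Inclusion of each variable exon (percent of informative reads, with Wilson 95% intervals) in replicate 1 (blue) and replicate 2 (orange), named by gene and length and ordered 5′ to 3′ within a gene. The libraries lie closest for the 75-base exon of Camk2b (78.7 and 79.3%) and the 42-base exon of Camk2d (27.5 and 28.2%), and the intervals of each exon overlap.

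No exon or chain of the 9 genes was called between the libraries. Of 39 exons tested in 7 of the genes, 10 were alternative, that is, between 10 and 90% inclusion in both libraries. Over all genes 7.70% of the 7079 exons tested were alternative. Exons that no read skipped were not tested, so neither value is a share of all covered exons. The 10 lay in Camk2b, Camk2d, Camk2g and Ppp3ca. Between the libraries 0 of the 39 were called by Fisher's exact test, where 0.0706% of all exons tested were. An unadjusted p under 0.05 was found for 1 of the 39 and for 2.87% of all exons tested. Of 6 chains tested in Pvalb, Calm2, Calm3 and Ppp3ca, 0 were called by Fisher's exact test, where 1.91% of all 2826 chains were. An unadjusted p under 0.05 was found for 2 of the 6, both of Pvalb, and for 12.3% of all chains. With 14 to 43 informative reads for the variable kinase and Ppp3cb exons in replicate 2, smaller differences were not detectable at this depth.

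The other genes of the pathway are given by list, and their calls are to be read against the 8.87% of all genes called higher in replicate 1 and the 11.4% called higher in replicate 2. Of 10 other EF-hand proteins 5 were tested, and 2 were called higher in replicate 2 and 0 higher in replicate 1. These were S100a13 (25 and 55 reads, log2 ratio -1.58) and S100b, a Schwann cell gene (2 and 13 reads, -2.84). With the trend on length removed S100a13 had a log2 ratio of -0.11 and was not called, S100b was called, and Sri, a calcium-binding partner of the ryanodine receptor (23 and 38 reads), was called as well at -1.19. Summed Schwann markers were 585 CPM in replicate 1 and 2458 CPM in replicate 2, over 5 of 5 markers, and their part in the S100b result was not tested. The most abundant of the list were S100a1, which binds the ryanodine receptor in muscle (110 ± 34.6 CPM), and Calu (87.9 ± 20.7 CPM). The buffers Calb1, Calb2 and Ocm and the calmodulin-like Calm4 and Calml3 had 0 reads in either library.

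Among 14 other calcineurin subunits and regulators, 11 were tested and 0 were called in either direction by Fisher's exact test. With the trend on length removed Cabin1, an inhibitor of calcineurin, was called higher in replicate 2 (14 and 20 reads, log2 ratio -1.38). Myoz1, a Z-disc protein that binds calcineurin, was the most abundant at 2259 ± 221 CPM, followed by Fkbp1a (264 ± 65.8 CPM), the target of the drug FK506, and Myoz2 (177 ± 2.85 CPM). The regulatory subunit gene Ppp3r1 had 173 and 140 reads, or 139 and 127 CPM, against 241 and 128 CPM for Ppp3ca. Of 12 other CaM kinases, CaMK inhibitors and phosphatases only 3 had enough reads to be tested and 0 were called. The highest were Camk1 at 51.5 ± 14.0 CPM, Pnck at 20.9 ± 7.82 CPM and Ppm1f, a phosphatase of CaMKII, at 11.8 ± 1.39 CPM.

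Of 10 transcription factors and deacetylases downstream, 7 were tested, 1 was called higher in replicate 1 and 0 higher in replicate 2. That was Hdac4, a class II deacetylase that CaMKII phosphorylates (33 and 6 reads, log2 ratio 1.93). With the trend on length removed its log2 ratio was 1.42 with an adjusted p of 0.0877 by an exact binomial test, and 0 of the list were called. Mef2c (111 ± 34.9 CPM), Mef2d (75.7 ± 36.8 CPM) and Mef2a (27.0 ± 15.1 CPM), partners of these deacetylases, were the most abundant. Of 15 other calmodulin-binding proteins of muscle 12 were tested, with 5 called higher in replicate 1 and 1 higher in replicate 2. The 5 were the phosphorylase kinase subunits Phka1 (1.53) and Phkb (1.19), the myosin light chain kinases Mylk2 (1.41) and Mylk4 (2.38) and the transcription factor Camta2 (2.08), each with its log2 ratio, and the other was Camta1 (-1.37). With the trend on length removed Phka1, Mylk2 and Camta2 were still called higher in replicate 1 and Camta1 higher in replicate 2, and Phkb and Mylk4 were not called. Ryr1, the calcium release channel (291 ± 89.2 CPM), Phkg1 (137 ± 37.5 CPM) and Strn3 (132 ± 43.4 CPM) had its highest levels.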

How the data were processed

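Long reads of 2 libraries were used as the authors deposited them, as raw read counts per transcript model with no normalization, 1 table per library. Per the file headers and the notes beside the files, reads were aligned to mm10, filtered and assigned by TALON to GENCODE M21 models or to unannotated ones. The sources name no aligner, platform or versions. Counts were summed over the models of a gene; spike-ins and unannotated loci were left out. Models were matched between libraries by intron chain. Chains are known, NIC and NNC models (unannotated chains of known or of other splice sites). ISM models hold part of a longer chain, which need not be in GENCODE M21. Genes needed 10 reads in the sum and chains 10 reads in genes with 50 chain reads in each library. Exons needed 20 informative reads in each library, and over both libraries a read with the exon and a read skipping it. They were compared by reads with both junctions into them against reads with the junction that skips them. A chain or exon call needed an adjusted p under 0.05 and 10 percentage points.

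Tests were two-sided Fisher's exact tests (SciPy 1.17.1) with Benjamini-Hochberg adjustment over all features. TMM factors (prior count 0.5) and the exact test were from edgeR 4.0.16, and alternative size factors from DESeq2 1.42.0. The gene and share tests were tested on simulated data. Intervals are Wilson 95% intervals and, like the limit of 3 reads for a count of 0, cover counting error only, since the tables hold no molecular identifiers and reads may repeat a molecule. Promoter windows are RefSeq's, and exon sequences GENCODE M21's; no exon sequence was read from the mice. The members, the gene lists and the rule for named genes were chosen with earlier results of these data known. That rule takes all 9 members, pathway genes that were called or were the 3 most abundant of their list, up to 4 models and 2 unannotated chains per member, and all variable exons. Others named here (S100b's markers, Ppp3cc, Ppp3r1, Sri, Cabin1 and genes at 0) were chosen after their values were seen. A gene of the lists and the sequence of an exon are not reported here.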

Additional observations from a re-analysis of the deposited data

How the results depend on the processing

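Over the 9 log2 ratios and 9 alternatives, 62 of 77 values kept their direction and side of the threshold. Calm3 turned to 0.28 when scaled by the totals and Camk2d to -0.23 with the length trend removed. The number of the 9 genes called was 2, and became 1 in full splice models, 1 with the length trend removed, 0 by edgeR's exact test and 3 without the genomic class. Higher in replicate 1 (0) became 1 when scaled by the totals (Camk2b), 1 in known models (Camk2b), 1 with the length trend removed (Camk2a) and 2 without the genomic class (Camk2a and Camk2b), an alternative chosen after seeing the data. Higher in replicate 2 (2) became 1 when scaled by the totals, 1 in full splice models, 1 in known models and 1 without the genomic class, each time Calm2 alone, and 0 with the length trend removed and by edgeR's exact test. Among all genes, 796 higher in replicate 1 became 354 with at least 50 reads (fewer genes tested), 266 with the length trend removed and 0 by edgeR's exact test, and 1021 higher in replicate 2 became 553 and 7 under the last 2. The 5 exons called over all genes became 12 in full splice models. The member counts of 0 for exons and chains held under each alternative run. The cause of these changes was not tested. In edgeR's exact test the dispersion holds the difference under test, so its low counts cannot decide whether the other calls stand. The summed level of the 9 genes was 5441 CPM and ran from 4120 to 6762 CPM when either library was left out. Leaving out a library leaves no comparison between libraries. No paired analysis was possible because there is a single group. Depth limits the kinase and Ppp3cb exons most, and Camk2a ratios rest on few reads.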

Other observations

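Models that the authors assigned to no annotated gene and that lie on the strand opposite to a member were found over all 9 genes. Over Pvalb they held 22 reads in replicate 1 and 71 in replicate 2, all in single-exon models. Over Camk2b they held 39 and 15 reads, over Camk2a 4 and 18, and over Ppp3ca 2 and 22. The other 5 genes had at most 8 such reads in a library. On the same strand no unannotated locus overlapped any of the 9. This count cannot decide whether such loci exist, since reads that overlap a gene without its splicing were assigned to it as the genomic class.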
